A study of Mus musculus with 9 samples.

Results

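Whole lungs of wild-type (WT) BALB/c mice given repeated intranasal instillations of PM2.5, the fine fraction of airborne particulate matter, were compared with lungs given a single instillation. The long-term group received 10 mg/kg of PM2.5 6 times, at intervals of 3 days, and the short-term group received 10 mg/kg 1 time. Each group has 3 of the series' 9 RNA-seq libraries. The remaining 3 come from WT BALB/c lungs labelled as long-term exposure to PBS, the buffer control, and serve here as background. Genes were kept where TPM (a transcript level scaled for transcript length and for the total of the library) was at least 1 in at least 3 of the 6 PM2.5 libraries, which left 13792 of the 18875 genes in the table. Of those, 13654 had a transcript length and were tested.

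The number of instillations, the cumulative dose (60 against 10 mg/kg) and the length of exposure differ between the groups together and cannot be told apart. The time from the last instillation to collection, the age and sex of the mice and the origin of the particles are not given in the sources used here. For PBS, the labels call the exposure long-term but give no number or interval of PBS instillations, and no PBS group of a single instillation was analysed here. The labels do not say that the libraries of a group come from separate mice, so p-values measure the spread between these libraries, which may be technical. Between 3 and 3 libraries an exact permutation test cannot give a two-sided p below 0.1, so single genes were tested with limma across all 13654 genes, with Benjamini-Hochberg adjustment and a threshold of 0.05.

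Particles that reach the alveoli are taken up by alveolar macrophages and touch the airway epithelium, and both can release cytokines and chemokines that draw neutrophils and monocytes out of the blood. Acute phase proteins, such as serum amyloid A and lipocalin, are induced by these cytokines in the lung itself. The airway lining consists mainly of ciliated cells, which move mucus, secretory club cells, and goblet cells, which make mucins and are scarce in the airways of untreated mice.

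All 7 lung markers used as a check of the tissue label were present in every library. Sftpc (surfactant protein C, of alveolar type 2 cells) stood between 19628 and 38597 TPM, Scgb1a1 (the club cell secretoglobin) between 106890 and 173402 TPM and Ager (of alveolar type 1 cells) between 3735 and 8039 TPM in the 6 PM2.5 libraries. Between 13829 and 13930 genes reached 1 TPM after repeated instillation, and 12560, 13414 and 13175 genes did so in short-term libraries 1, 2 and 3. Short-term libraries lost signal as transcripts became longer, to different degrees. In the tenth of genes with the longest transcripts, the median log2 difference from the mean of the 6 libraries, less that in the tenth with the shortest, was -1.01, -0.11 and -0.37 in short-term libraries 1 to 3 and 0.54, 0.45 and 0.50 in long-term libraries 1 to 3. The libraries were therefore corrected one by one for transcript length and GC content, after which the same measure lay between -0.04 and 0.07. Differences below are long-term minus short-term on the corrected log2(TPM + 1) scale with their standard error (SE), unless given as deposited. The added 1 TPM makes them understate changes of genes at low levels. As deposited, the length measure was 0.69, 0.74 and 0.63 in PBS libraries 1 to 3. TPM levels below, those of PBS included, are as deposited, so length is not allowed for where PBS is placed beside the PM2.5 groups.

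**Figure D1:**
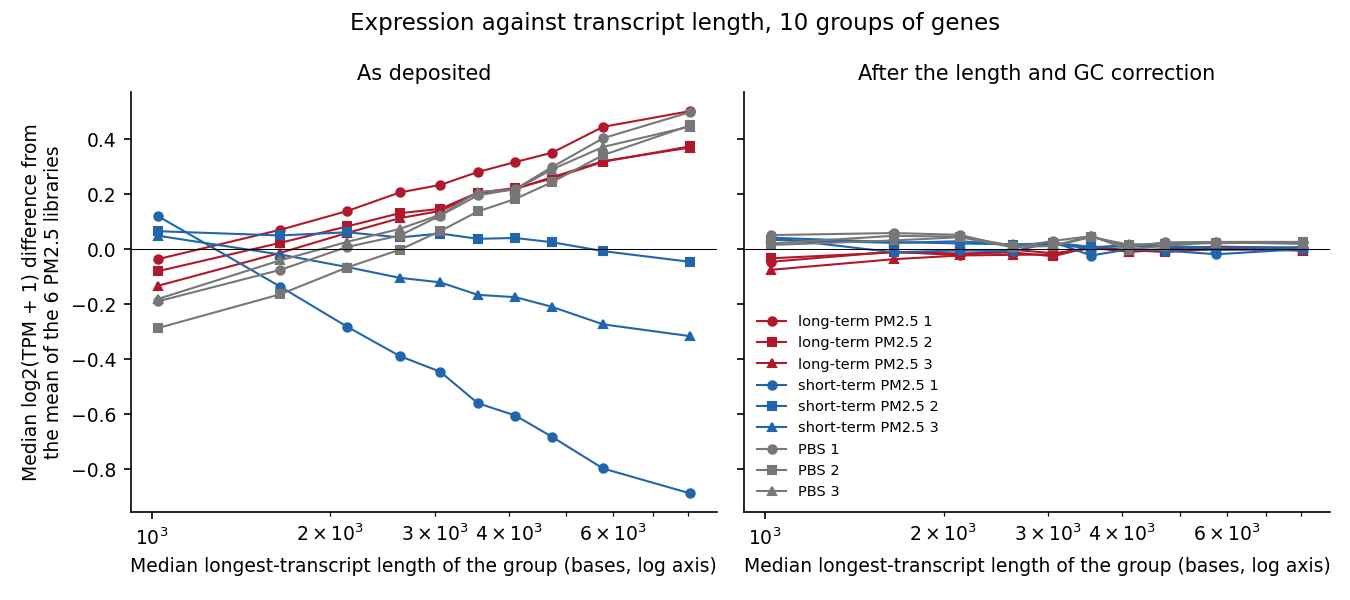
Median log2(TPM + 1) difference of each library from the mean of the 6 PM2.5 libraries, in 10 groups of genes ordered by transcript length (horizontal axis, bases, log axis), as deposited and after correction. Lines are single libraries, coloured by group. As deposited, the line of short-term library 1 falls farthest with length, and after correction the 9 lines lie close to 0.

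After correction 4840 genes passed the threshold (35.4% of those tested), 2263 higher (16.6%) and 2577 lower (18.9%) with repeated instillation. Among them 414 genes (3.03%) were higher by at least 1 log2 unit and 243 (1.78%) were lower by as much. As deposited, with no correction, 4266 genes were higher (30.9%) and 733 lower (5.31%), and the median of all genes lay 0.41 above 0, against -0.02 after correction. Without long-term library 1, 2 or 3 the number of changed genes was 2857, 2449 or 2824. The groups did not overlap after correction for 53.9% of all tested genes, long-term lying higher for 25% and lower for 28.9%, and 35.3% both passed and did not overlap, so a gap between the groups is common in these data. Of the tested genes, 312 reached 1 TPM in every long-term and in no short-term library, and 18 the reverse. Such genes entered the test only through the group where they are high. Without them 15.9% of genes were higher and 19.2% lower. Among the genes whose values are given below, those of the long-term group are Gp2, Muc5ac, Mcidas, Foxn4, Crocc2, Chil4 and Rfx3. Those of the short-term group are Csf3 and Saa2. Where such a gene passed the threshold, the adjusted p is given from the fit with no filter on low values.

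Most tested members of the lists of acute phase genes, acute cytokines and monocyte chemokines were lower with repeated than with single instillation. Most tested members of the lists of goblet, club and ciliated cells and of alveolar and lipid-laden macrophages were higher. The lists are described by counts of their tested members past the threshold and by their median, beside 16.6% higher, 18.9% lower and a median of -0.02 for all genes.

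**Figure D2:**
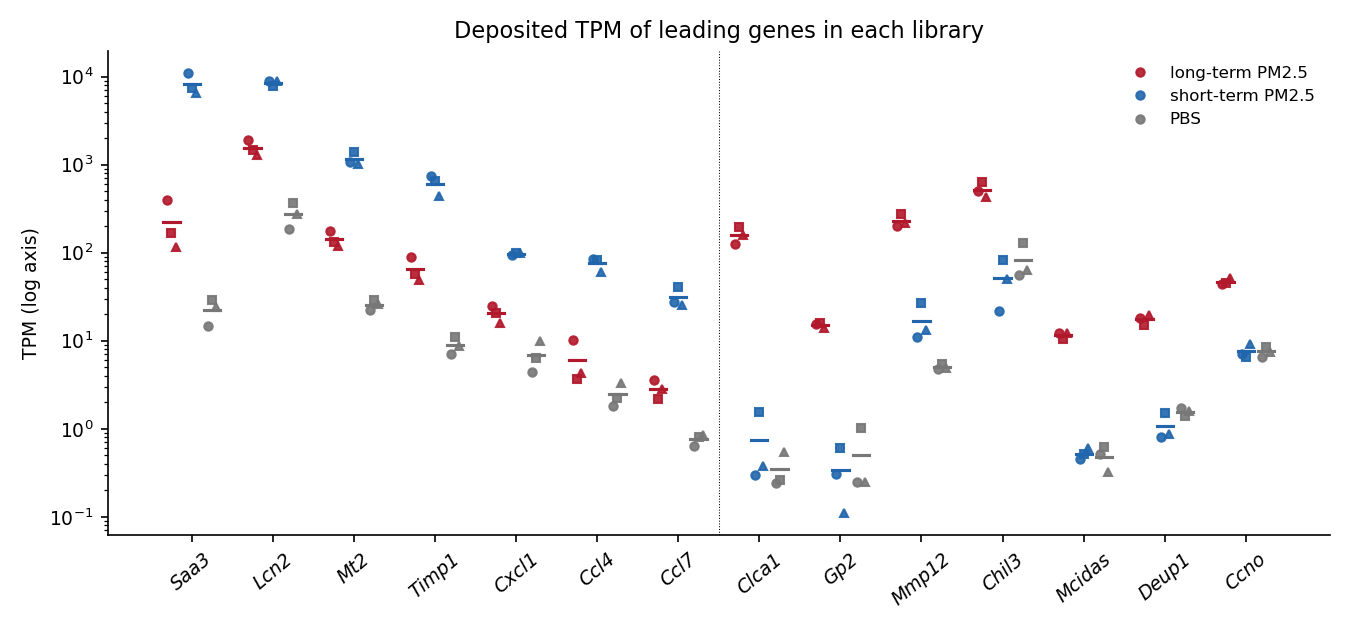
Deposited TPM (log axis) of 14 genes in each library. Points are libraries, symbols mark the replicate number, and short lines are group means. The 7 genes left of the dotted line were lower with long-term than with short-term PM2.5, and the 7 on the right were higher. For all 14 the 3 long-term libraries lay apart from the 3 short-term ones.

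Acute cytokines and neutrophil chemokines were lower with repeated instillation: 14 of 17 tested members fell below the short-term group past the threshold, 1 was higher, and the median difference was -1.51 (-1.32 as deposited). Without Csf3 it was 13 of 16. Il6, a cytokine that drives the acute phase response (chromosome 5, 30013114 to 30019975, GRCm38.p6), was at 1.23, 0.64 and 0.28 TPM in long-term libraries 1 to 3, at 5.25, 10.4 and 7.76 TPM in short-term libraries 1 to 3, and at 0, 0.07 and 0.14 TPM with PBS. Its difference was -2.75 ± 0.15 (adjusted p = 6.31e-05). Long-term levels thus lay between those of PBS and of a single instillation. Csf3, the growth factor of neutrophils, was at 0.18, 0 and 0.06 TPM against 5.75, 6.47 and 5.04 TPM, and at most 0.06 TPM with PBS, a difference of -2.60 ± 0.14 (adjusted p with no filter = 5.18e-05), which was -5.11 with 0.1 in place of 1 added. For this gene the long-term and PBS libraries overlapped.

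Cxcl1 and Cxcl2, ligands of the neutrophil receptor Cxcr2, behaved alike. Cxcl1 stood at 25.1, 20.9 and 16.1 TPM against 94.96, 99.96 and 98.3 TPM, with PBS at 4.43, 6.41 and 9.83 TPM (difference -2.48 ± 0.17, adjusted p = 0.000151). Cxcl2 was at 12.9, 8.99 and 6.25 TPM against 56.9, 55.5 and 61.2 TPM (-2.87 ± 0.23, adjusted p = 0.000215). For both, the 3 short-term libraries were above the long-term ones, and those above PBS. Il1b, an inflammasome product, differed by -1.74 ± 0.11 (adjusted p = 0.000125) and Tnf, named after its values were seen, by -1.75 ± 0.26 (adjusted p = 0.00237). The member that went the other way was Ptgs2, the inducible enzyme of prostaglandin synthesis, at 8.70, 7.36 and 6.27 TPM with repeated and 1.54, 4.34 and 2.88 TPM with single instillation (0.51 ± 0.10, adjusted p = 0.00842; 1.16 as deposited).

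Monocyte chemokines and their receptors showed the same direction, with 9 of 12 tested members lower, 1 higher and a median of -1.23 (-0.75 as deposited). Leaving out 1 library gave 9 to 10 lower and 0 to 2 higher. Ccl7, a ligand of the monocyte receptor Ccr2, was at 3.58, 2.15 and 2.84 TPM against 27.6, 40.9 and 25.8 TPM, and at 0.63 to 0.84 TPM with PBS (-3.06 ± 0.14, adjusted p = 2.07e-05). Ccl2, another Ccr2 ligand, was at 11.7, 6.32 and 7.56 TPM against 45.5, 58.6 and 44.4 TPM (-2.51 ± 0.16, adjusted p = 0.000114). Ccl4, a chemokine that attracts leukocytes, was at 10.1, 3.66 and 4.25 TPM against 84.2, 83.2 and 60.1 TPM (-3.45 ± 0.28, adjusted p = 0.000217). In each of these the lowest short-term library was well above the highest long-term one, and all long-term libraries were above all PBS ones. Ccl6, a chemokine that alveolar macrophages make, was the exception at 825, 556 and 537 TPM against 269, 477 and 432 TPM (0.55 ± 0.16, adjusted p = 0.0305), a call that was lost in 7 of the 21 alternatives tried, with 0.32 for the median transcript length and 1.02 after quantile normalization.

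Feedback regulators that NF-kB and STAT3 induce were lower for 9 of 13 members and higher for none (median -0.40). Socs3, the inhibitor of STAT3 signalling, was at 58.5, 64.0 and 60.6 TPM against 98.4, 128 and 115 TPM, with PBS at 29.0 to 44.1 TPM (-1.07 ± 0.12, adjusted p = 0.000804). Relb and Nfkb2, which form the noncanonical NF-kB dimer, differed by -0.76 ± 0.11 and -0.86 ± 0.16 (adjusted p = 0.00253 and 0.00539), and by -0.46 and -0.53 as deposited. Without long-term library 2 or 3 the count of lower members was 6 or 5, and as deposited it was 5.

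Acute phase genes held the largest decreases among the genes named by the rule. Of 22 tested members 18 were lower with repeated instillation and none was higher, with a median of -1.39 (-1.06 as deposited). Without Saa2 it was 17 of 21. Saa3, a serum amyloid A made in lung (gene identifier 20210; chromosome 7, 46711998 to 46719615, GRCm38.p6), was at 395, 165 and 115 TPM in long-term libraries 1 to 3 and at 11073, 7458 and 6515 TPM in short-term libraries 1 to 3, against 14.7, 28.7 and 23.9 TPM with PBS. The difference was -5.68 ± 0.43 (adjusted p = 0.000209), and the long-term libraries still lay above those of PBS. Saa1 was at 1.42, 0.49 and 0.64 TPM against 87.9, 68.3 and 62.4 TPM (-5.57 ± 0.22, adjusted p = 1.25e-05), and Saa2 at 0.85, 0 and 0 TPM against 11, 10.6 and 13.3 TPM (-3.57 ± 0.23, adjusted p with no filter = 0.000175; -6.04 with 0.1 added). Saa1 and Saa2 are close copies, so how reads were divided between them is uncertain.

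Lcn2, a siderophore-binding lipocalin of epithelium and neutrophils, stood at 1909, 1453 and 1282 TPM against 8878, 7789 and 9001 TPM, and at 184 to 366 TPM with PBS (-2.46 ± 0.16, adjusted p = 0.000117). Hpx, the haem-binding protein haemopexin, was at 1.83, 2.10 and 1.76 TPM against 23.3, 29.6 and 26.1 TPM (-3.26 ± 0.11, adjusted p = 9.07e-06), and its long-term values lay just above those of PBS, at 1.16 to 1.71 TPM. C3, the central complement protein, differed by -1.34 ± 0.11 (adjusted p = 0.000218), and by -0.78 as deposited. Libraries underwent treatment with duplex-specific nuclease (DSN), which lowers abundant transcripts, so the gaps of Saa3 and Lcn2 may not be in proportion to the RNA. Among other genes with the largest decreases were Timp1, the inhibitor of metalloproteinases, at 90.2, 56.8 and 49.4 TPM against 740, 648 and 443 TPM (-3.09 ± 0.23, adjusted p = 0.000198), Acod1, the itaconate-making enzyme of activated macrophages (-2.63 ± 0.34, adjusted p = 0.00135), and Gpr84, a fatty acid receptor of myeloid cells (-2.63 ± 0.21, adjusted p = 0.000228).

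Neutrophil genes were lower for 9 of 15 tested members and higher for 2 (median -0.97, -0.89 as deposited). Their summed level over the 17 listed genes was 524 to 876 TPM with repeated, 1080 to 1640 TPM with single instillation and 406 to 670 TPM with PBS. In whole lung, fewer cells of a type and less RNA per cell cannot be told apart, here and for the other cell types below. Il1r2, the decoy receptor of interleukin 1, was at 3.55, 1.97 and 2.02 TPM against 13.7, 31.9 and 18.5 TPM (-2.74 ± 0.23, adjusted p = 0.000233). Cxcr2 was at 8.32, 6.73 and 8.02 TPM against 15.7, 24.0 and 19.9 TPM (-1.73 ± 0.10, adjusted p = 8.44e-05), with PBS at 6.28 to 9.47 TPM overlapping the long-term values. The 2 members that were higher, named for that reason after their values were seen, were Ltf, the iron-binding lactoferrin, at 213, 141 and 217 TPM against 38.6, 52.3 and 26.5 TPM (1.94 ± 0.24, adjusted p = 0.00129), and Fpr1, a formyl peptide receptor (0.69 ± 0.14, adjusted p = 0.00944; 0.36 with the median transcript length). Ltf is also made by airway glands and epithelium. The neutrophil markers moved in the direction of the cytokine and acute phase genes, and their part in those results was not tested.

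The zinc and metallothionein list was lower in part, with 5 of 10 tested members lower and 1 higher, Slc39a10, and with a median of -0.37 that turned to 0.16 as deposited. Mt2, a metallothionein that binds zinc and copper, was at 177, 134 and 120 TPM against 1083, 1408 and 1016 TPM, and at 22.2 to 28.8 TPM with PBS (-2.74 ± 0.20, adjusted p = 0.000201). Mt1, its neighbour on chromosome 8, was at 608, 567 and 491 TPM against 1591, 1775 and 1523 TPM, and at 141 to 159 TPM with PBS (-1.48 ± 0.11, adjusted p = 0.000198). Slc39a14, a zinc and iron importer, differed by -1.66 ± 0.12 (adjusted p = 0.000168; -1.07 as deposited). The 4 members that did not pass, the regulator Mtf1 and the transporters Slc30a1, Slc30a7 and Slc39a8, differed by -0.21 to 0.27. The call of Slc39a10 was lost when any 1 library other than short-term library 2 was left out. Hamp, the iron hormone hepcidin, was at 9.96, 11.9 and 10.4 TPM against 47.1, 31.6 and 29.97 TPM (-1.42 ± 0.15, adjusted p = 0.000756), and PBS, at 28.6 to 44.1 TPM, overlapped the short-term libraries.

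The 250 bases upstream of Mt2 are shown because metallothionein genes are induced by metals through metal response elements, whose core is TGCNCNC. Capitals mark its 5 matches, on either strand, in the RefSeq window on GRCm38.p6, chr8:94172368-94172617, plus strand.
Mt2: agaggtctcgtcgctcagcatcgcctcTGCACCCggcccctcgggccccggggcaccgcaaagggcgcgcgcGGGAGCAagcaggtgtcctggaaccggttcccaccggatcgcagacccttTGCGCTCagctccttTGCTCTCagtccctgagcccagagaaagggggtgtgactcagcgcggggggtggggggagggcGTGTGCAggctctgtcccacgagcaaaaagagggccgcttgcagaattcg
The core is short, and 52.2% of the 13913 windows of tested genes held at least 1 match, as did 50% of those of the zinc and metallothionein list. A match describes letters and does not show that a factor binds there.

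Goblet cell genes had the highest median of the lists with at least 5 tested members: 10 of 12 tested members were higher with repeated instillation and none was lower (median 1.56, 1.91 as deposited). Without the 3 members that entered through the long-term group alone, 7 of 9 were higher (median 1.33). Clca1, a secreted goblet cell protein that acts on chloride currents and mucus (gene identifier 23844; chromosome 3, 145004537 to 145032776), was at 126, 197 and 158 TPM in long-term libraries 1 to 3, at 0.30, 1.53 and 0.38 TPM in short-term libraries 1 to 3 and at 0.24, 0.26 and 0.55 TPM with PBS. Its difference of 6.05 ± 0.21 (adjusted p = 9.07e-06) was the largest increase among the genes named by the rule. Muc5ac, the gel-forming mucin of goblet cells, was at 6.81, 8.08 and 7.79 TPM against 0.42, 0.48 and 0.55 TPM (1.76 ± 0.14, adjusted p with no filter = 0.000226; 2.77 with 0.1 added). For both genes a single instillation left levels near those of PBS, where Muc5ac was at 0.15 to 0.27 TPM.

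Gp2, a glycoprotein that binds bacterial fimbriae, was at 15.4, 16 and 14.0 TPM against 0.31, 0.60 and 0.11 TPM (3.34 ± 0.14, adjusted p with no filter = 1.66e-05). Tff2, a trefoil peptide of mucus, was at 44.9, 43.0 and 64.5 TPM against 9.31, 10.5 and 5.58 TPM (2.70 ± 0.23, adjusted p = 0.000298). Both lay apart in all 6 libraries. The 2 goblet cell members that did not pass were Slc26a4, the anion exchanger pendrin, and Creb3l1. Slc26a4 was at 20.3, 22.9 and 18.1 TPM with repeated and 10.9, 28.8 and 12.0 TPM with single instillation, but at 0.73 to 1.34 TPM with PBS (-0.05 ± 0.24, adjusted p = 0.875), so this gene was high in both PM2.5 groups.

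Club cell genes were higher for 8 of 11 members and lower for none (median 0.84). Scgb3a1 was at 3565, 3384 and 4085 TPM against 1153, 1180 and 658 TPM (2.15 ± 0.21, adjusted p = 0.000537), with PBS at 389 to 884 TPM. Scgb3a2, a related secretoglobin, was at 1402, 1231 and 1590 TPM against 267, 448 and 367 TPM (1.97 ± 0.14, adjusted p = 0.000175), but PBS, at 802 to 1045 TPM, lay between the groups. Scgb1a1, the most abundant transcript, differed by 0.62 ± 0.18 (adjusted p = 0.0302), by 0.28 with the median transcript length, and lost its call in 11 of the 21 alternatives.

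Ciliated cell genes were higher for 25 of 26 members and lower for none, with a median of 1.26 (1.65 as deposited). Without Rfx3, Mcidas and Spag17, which entered through the long-term group alone, 23 of 23 were higher (median 1.27). Those at the head of the list act early in the making of multiciliated cells. Mcidas, a regulator that starts the multiciliated programme (gene identifier 622408; chromosome 13, 112993581 to 113000394), was at 12.3, 10.5 and 12.2 TPM against 0.45, 0.51 and 0.61 TPM, and at 0.32 to 0.62 TPM with PBS (2.84 ± 0.11, adjusted p with no filter = 1.39e-05). Deup1, which builds the deuterosomes that multiply centrioles, was at 18.1, 15.1 and 19.6 TPM against 0.81, 1.52 and 0.87 TPM (2.71 ± 0.14, adjusted p = 4.26e-05). Ccno, a cyclin of centriole amplification that neighbours Mcidas, was at 44.1, 44.7 and 51.6 TPM against 7.05, 6.58 and 9.24 TPM (2.29 ± 0.13, adjusted p = 6.66e-05).

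Other early genes of this programme, outside the list, were among the largest increases. Myb, a transcription factor of progenitors and early multiciliated cells, was at 25.4, 19.3 and 26.5 TPM against 0.71, 2.52 and 1.51 TPM (2.77 ± 0.13, adjusted p = 3.52e-05). Foxn4 was at 7.27, 6.34 and 7.55 TPM against 0.30, 0.14 and 0.14 TPM (2.497 ± 0.13, adjusted p with no filter = 4.46e-05; 4.35 with 0.1 added), and Ccna1, cyclin A1, at 15, 14.1 and 17.5 TPM against 1.29, 1.63 and 1.63 TPM (2.62 ± 0.11, adjusted p = 2.03e-05). For Mcidas, Deup1, Ccno and Foxn4, PBS values were of the same order as those after a single instillation, while Myb stood higher with PBS, at 5.75 to 6.32 TPM.

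The 15 largest increases also held genes of other kinds or of no list. Crocc2, a ciliary rootlet gene, was at 17.9, 16.5 and 16.4 TPM against 0.51, 0.84 and 0.89 TPM, with PBS at 2.40 to 2.94 TPM (2.73 ± 0.10, adjusted p with no filter = 1.29e-05). Spata18, a gene of mitochondrial quality control, was at 30.3, 27.0 and 33.3 TPM against 1.91, 4.34 and 2.76 TPM, and PBS, at 11.4 to 14.0 TPM, lay between the groups (2.85 ± 0.17, adjusted p = 9.03e-05). Psme2b, a proteasome activator copy, was at 29.1, 25.3 and 19.97 TPM against 3.83, 3.23 and 1.91 TPM (2.76 ± 0.19, adjusted p = 0.00016). PBS, at 27.2 to 28.0 TPM, was near the long-term libraries for this gene, so the single instillation was the group that stood apart. Cd300ld5, of a family of myeloid receptors with close copies, was at 23.3, 10.9 and 7.05 TPM against 1.23, 0 and 2.62 TPM, with PBS at 4.52 to 10.6 TPM (2.82 ± 0.51, adjusted p = 0.00528). Among the 15 largest decreases, Rsc1a1 was at 0, 2.25 and 0 TPM against 8.23, 5.59 and 7.57 TPM and listed at 0 in all 3 PBS libraries (-2.58 ± 0.44, adjusted p = 0.00451). Reads of Psme2b and Cd300ld5 may be shared with their copies.

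The other members of the ciliated cell list differed by less than Mcidas, Deup1 and Ccno, from -0.02 for Rfx3 to 1.80 for Ccdc39. Foxj1, the master regulator of motile cilia, was at 237, 237 and 283 TPM against 80.8, 68.7 and 81.3 TPM, with PBS at 85.2 to 95.0 TPM (1.52 ± 0.10, adjusted p = 0.000152). Rsph1, a radial spoke protein named after its values were seen, was at 92.5, 94.5 and 119.5 TPM against 43.3, 35.0 and 41.4 TPM (1.38 ± 0.14, adjusted p = 0.000633). The member that did not pass was Rfx3, at 2.26, 1.91 and 2.14 TPM against 0.44, 0.89 and 0.66 TPM, whose difference was 0.91 as deposited and -0.02 ± 0.19 after correction (adjusted p = 0.935).

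RFX factors bind promoters of ciliary genes. The windows upstream of the neighbouring genes Mcidas and Ccno, which were among the largest differences of the list, are shown as examples. That of Deup1, whose difference lay between theirs, is not shown. Capitals mark the RFX motif GTTGCC, searched on both strands, in the RefSeq windows on GRCm38.p6, Mcidas at chr13:112993618-112993867 and Ccno at chr13:112987552-112987801, both on the plus strand. The Mcidas window lies inside the gene span given above, so it precedes a transcript start that is downstream of the first base of that span.
Mcidas: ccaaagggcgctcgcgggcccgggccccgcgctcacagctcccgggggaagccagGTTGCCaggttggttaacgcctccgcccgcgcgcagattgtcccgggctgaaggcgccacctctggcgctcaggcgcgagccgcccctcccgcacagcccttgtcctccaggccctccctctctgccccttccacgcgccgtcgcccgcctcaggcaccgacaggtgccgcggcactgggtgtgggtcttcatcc
Ccno: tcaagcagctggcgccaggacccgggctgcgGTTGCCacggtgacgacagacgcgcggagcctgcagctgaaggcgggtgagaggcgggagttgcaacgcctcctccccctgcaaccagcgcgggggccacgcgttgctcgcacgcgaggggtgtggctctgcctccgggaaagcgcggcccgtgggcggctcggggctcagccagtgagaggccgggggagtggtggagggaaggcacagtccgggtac
GTTGCC was found in 46.4% of the 28 windows of ciliated cell genes and in 10.7% of all 13913 windows of tested genes. These shares describe the sequences only.

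**Figure D3:**
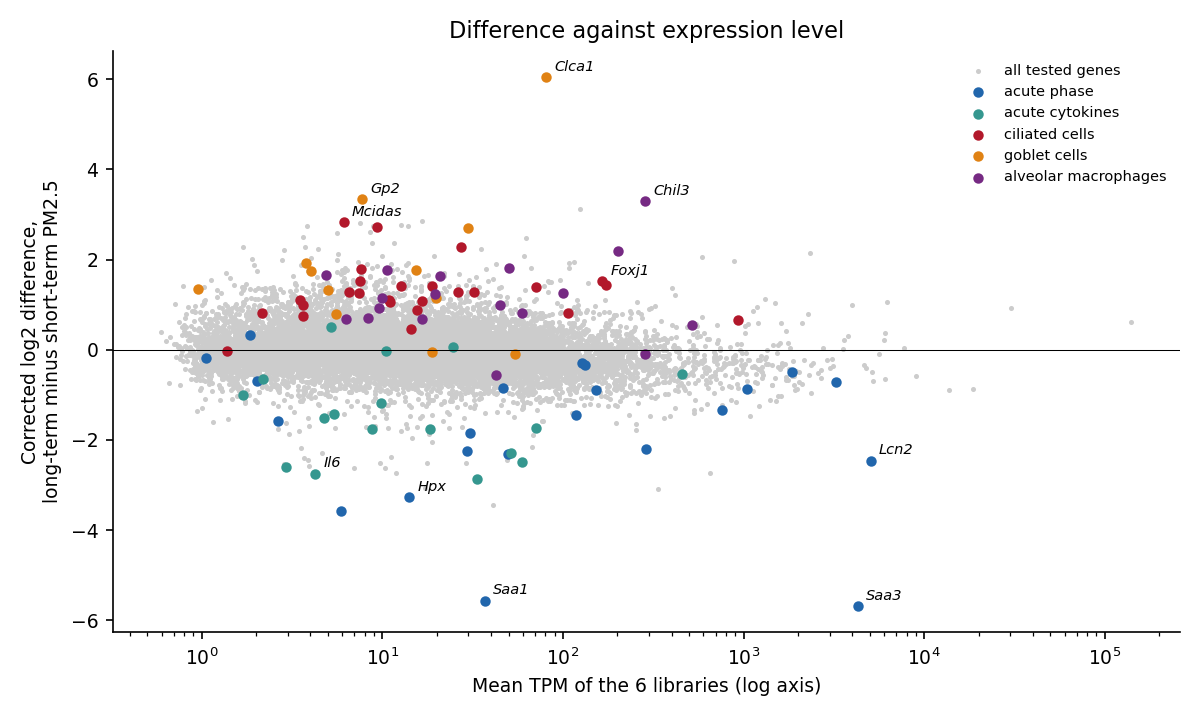
Corrected log2 difference (long-term minus short-term) of each tested gene against its mean TPM in the 6 libraries (log axis). Coloured points are members of 5 lists. Goblet cell, ciliated cell and alveolar macrophage genes lie mostly above 0 and acute phase and acute cytokine genes mostly below, over the whole range of levels.

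Macrophage genes were mostly higher in 2 of 3 lists. Alveolar macrophage genes were higher for 16 of 18 members and lower for none (median 1.07), and genes of lipid-laden macrophages, the form that stores ingested lipid and debris, for 16 of 21 with 2 lower (median 0.77). These lists share Itgax and Atp6v0d2. Of genes of monocytes and interstitial macrophages, 6 of 18 were higher and 4 lower (median 0.14). Without 1 library these counts ranged from 2 to 6 higher and 3 to 7 lower, and without long-term library 1 or 2 or short-term library 1 or 3 more members were lower than higher (2 against 5, 2 against 3, 3 against 4 and 2 against 7 for higher against lower). Mmp12, the macrophage elastase (gene identifier 17381; chromosome 9, 7344397 to 7360461), was at 201, 272 and 218 TPM against 11, 26.5 and 13.2 TPM, and at 4.82 to 5.43 TPM with PBS (3.12 ± 0.19, adjusted p = 0.000105). Chil3, a chitinase-like protein of macrophages, was at 502, 634 and 428 TPM against 21.7, 82.4 and 49.7 TPM (3.30 ± 0.31, adjusted p = 0.000458), with PBS, at 55.5 to 127 TPM, overlapping the single instillation. Its reads may be shared with close copies such as Chil4.

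Gpnmb, a lysosomal glycoprotein of phagocytes, was at 135, 124 and 73.2 TPM against 14.9, 24.7 and 24.9 TPM, and at 4.50 to 6.41 TPM with PBS (1.81 ± 0.21, adjusted p = 0.000925). Trem2, the lipid-sensing receptor, was at 58.3, 57.0 and 49.9 TPM against 16.4, 13.2 and 15.2 TPM (1.24 ± 0.20, adjusted p = 0.00346), and Ctsk, cathepsin K, at 226, 184 and 113 TPM against 27.6, 51.9 and 42.5 TPM (1.92 ± 0.24, adjusted p = 0.00119). For Gpnmb and Ctsk, the short-term libraries already lay above PBS and the long-term libraries higher again. Siglecf, a lectin of alveolar macrophages and eosinophils, was at 19.2, 18.4 and 15.7 TPM against 1.69, 5.22 and 3.56 TPM (1.78 ± 0.17, adjusted p = 0.000503), and here PBS, at 7.91 to 9.22 TPM, lay between the groups. Marco, a scavenger receptor for particles that was named after its values were seen, was at 42.1, 24.3 and 32.0 TPM against 7.52, 8.51 and 10.9 TPM, with PBS at 2.06 to 7.69 TPM (1.63 ± 0.20, adjusted p = 0.00107).

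Lower members of the lipid-laden macrophage list were Msr1, a scavenger receptor (-0.90 ± 0.19, adjusted p = 0.01; -0.33 as deposited), and Cd63, a lysosomal tetraspanin (-0.89 ± 0.14, adjusted p = 0.0026; -0.38 after quantile normalization). The 4 lower members of the monocyte and interstitial macrophage list included Vcan (-1.24 ± 0.11, adjusted p = 0.00039; -0.29 as deposited) and Cd14 (-0.79 ± 0.10, adjusted p = 0.00137). Cd163 was also lower (-0.64 ± 0.13, adjusted p = 0.00807; -0.02 as deposited). The 6 higher members of that list differed by 0.44 (C1qb) to 0.82 (Fcgr4). The alveolar macrophage members that did not pass were Car4 (-0.08 ± 0.10, adjusted p = 0.54) and Fabp4 (-0.57 ± 0.34, adjusted p = 0.215), which endothelial cells also express. Lysosomal genes were higher for 9 of 23 members and lower for 3 (median 0.22). Ctsd, cathepsin D, was at 1906, 1616 and 1362 TPM against 713, 785 and 779 TPM (0.95 ± 0.13, adjusted p = 0.00192; 1.54 after quantile normalization). Without long-term library 1 or 2 the count of higher lysosomal members was 4, and without long-term library 2 or 3 that of lower members was 1.

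Genes of type 2 immunity, the response to helminths and allergens that includes goblet cell mucins, showed 4 of 15 tested members higher, 4 lower and a median of -0.02 (0.30 as deposited). The higher members were Retnla, Chil3 (given above), Chil4 and Alox15. Without Chil4, which entered through the long-term group alone, 3 of 14 were higher and 4 lower (median -0.06). These shares, 21.4% and 28.6%, are near those of all tested genes without such members, 15.9% and 19.2%. Retnla, a resistin-like molecule of this response, was at 7001, 6278 and 6709 TPM with repeated, 5017, 5672 and 5575 TPM with single instillation and 45.9 to 60.7 TPM with PBS. Both PM2.5 groups were thus far above PBS, while the difference between them, 0.37 ± 0.11 (adjusted p = 0.0352), lost its call in 10 of the 21 alternatives and was -0.03 with the median transcript length. Chil4 was at 7.99, 4.26 and 10.5 TPM against 0.15, 0 and 0.05 TPM, and listed at 0 in all 3 PBS libraries (2.74 ± 0.29, adjusted p with no filter = 0.000663; 5.27 with 0.1 added). Alox15, a lipoxygenase named after its values were seen, was higher by 1.14 ± 0.24 (adjusted p = 0.00937).

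Of the 4 tested chemokines of this list, 3 were lower. Ccl11, an eosinophil chemokine, did not pass (-0.02 ± 0.28, adjusted p = 0.958). Ccl17, which attracts type 2 helper T cells, was at 17.9, 15.1 and 13.0 TPM against 47.3, 57.9 and 32.2 TPM, with PBS at 2.88 to 3.73 TPM (-1.27 ± 0.19, adjusted p = 0.00245). Ccl22, which shares its receptor, differed by -0.63 ± 0.10 (adjusted p = 0.00337; -0.37 as deposited) and Ccl24, another eosinophil chemokine, by -1.52 ± 0.43 (adjusted p = 0.0268; -0.69 with array weights, and lost in 4 alternatives). Il4ra, the receptor subunit of interleukins 4 and 13, differed by -0.75 ± 0.10 (adjusted p = 0.00191), and by -0.22 as deposited. Il4, Il5, Il13 and Il13ra2 were below the filter. Among genes of mast cells, basophils and eosinophils none of 8 tested members passed in either direction.

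Genes of the cell cycle divided by phase. DNA replication genes were lower with repeated instillation for 20 of 24 members and higher for none (median -0.82), whereas mitosis genes were higher for 15 of 28 and lower for none (median 0.53). Of the 28, Ttk, Cenpe and Cenpf entered through the long-term group alone and are not among the 15. Both counts depended on the correction. As deposited 2 replication genes were lower (median -0.39) and 26 mitosis genes higher (median 1.02), so the median of each list lay on the same side of 0 in both versions, while the counts past the threshold differed. With the median transcript length 18 replication genes were lower and 17 mitosis genes higher, and after quantile normalization 20 and 9. Leaving out 1 library gave 15 to 19 replication genes lower and 10 to 15 mitosis genes higher.

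Mcm5, a subunit of the replicative helicase, was at 13.8, 11.5 and 11 TPM against 23.3, 24.8 and 19.9 TPM, and at 7.14 to 7.49 TPM with PBS (-1.24 ± 0.14, adjusted p = 0.000882; -0.85 as deposited). Mcm6, another subunit, was at 13.8, 9.16 and 9.61 TPM against 14.0, 24.9 and 15.3 TPM (-1.28 ± 0.15, adjusted p = 0.000995; -0.67 as deposited). The long-term libraries were lower than the short-term ones for both. The 4 replication members that did not pass were Rrm2, Slbp, Ccne2 and Ccne1, with differences from -0.27 to -0.01.

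Ccnb2, a mitotic cyclin, was at 20.5, 14.8 and 12.4 TPM against 4.55, 5.33 and 4.26 TPM, with PBS at 3.80 to 4.91 TPM (1.40 ± 0.15, adjusted p = 0.000723). Ccnb1, another mitotic cyclin, was at 8.18, 5.92 and 5.08 TPM against 0.57, 2.17 and 1.34 TPM (1.28 ± 0.14, adjusted p = 0.000676), and Cdc20, the activator of the anaphase-promoting complex, at 28.9, 24.1 and 21.6 TPM against 10.1, 11.7 and 9.81 TPM (1.10 ± 0.12, adjusted p = 0.000855). These 3 did not overlap between the groups. Mki67, the proliferation marker, was at 14.2, 8.90 and 7.24 TPM against 2.30, 4.31 and 3.42 TPM, a difference of 1.34 as deposited (adjusted p = 0.014) and of 0.41 ± 0.18 after correction (adjusted p = 0.112). Cdk1, the mitotic kinase, differed by 0.05 ± 0.17 (adjusted p = 0.832), although both PM2.5 groups, at 2.94 to 7.28 TPM, lay above PBS at 0.88 to 1.62 TPM.

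**Figure D4:**
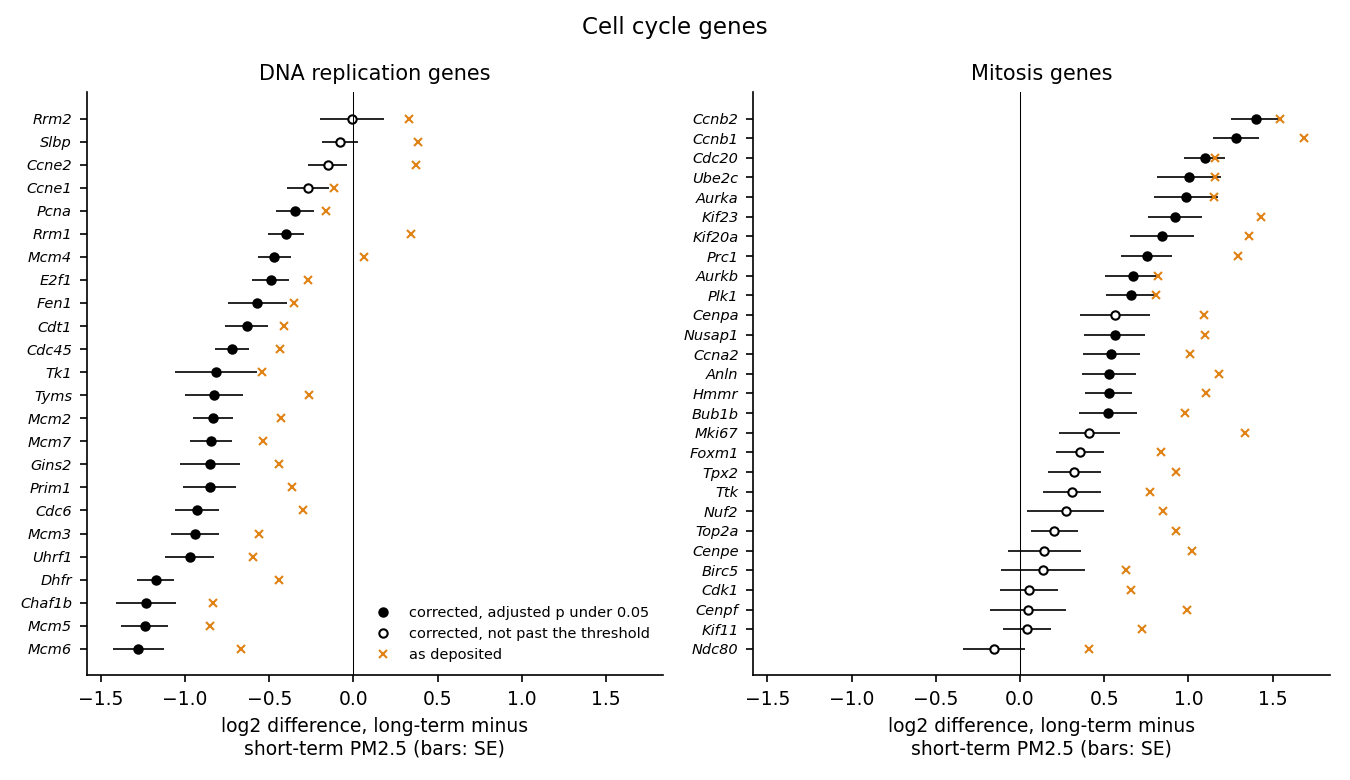
Log2 difference (long-term minus short-term) of each tested gene of DNA replication and of mitosis. Circles with SE bars are corrected values, filled where the adjusted p was under 0.05, and crosses are values as deposited. The replication genes lie at or below 0 after correction, and nearly all mitosis genes above 0.

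Promoters of mitotic genes often hold CCAAT boxes, and those of Ccnb2 and Cdc20, both higher, are shown for that reason. Capitals mark CCAAT or its complement in the RefSeq windows of 250 bases on GRCm38.p6, Ccnb2 at chr9:70421555-70421804 and Cdc20 at chr4:118437344-118437593, both on the minus strand, printed in the direction of the gene.
Ccnb2: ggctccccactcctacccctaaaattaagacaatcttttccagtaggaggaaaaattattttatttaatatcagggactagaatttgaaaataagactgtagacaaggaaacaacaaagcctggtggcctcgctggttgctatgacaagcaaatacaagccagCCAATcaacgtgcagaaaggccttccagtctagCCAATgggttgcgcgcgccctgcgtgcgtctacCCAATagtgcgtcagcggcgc
Cdc20: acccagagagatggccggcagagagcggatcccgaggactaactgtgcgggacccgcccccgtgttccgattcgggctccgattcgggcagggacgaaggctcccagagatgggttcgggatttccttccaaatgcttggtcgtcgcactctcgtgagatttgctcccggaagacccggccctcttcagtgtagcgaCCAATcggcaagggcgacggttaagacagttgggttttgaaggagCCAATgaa
Ccnb2 held 3 matches, at 87, 54 and 21 bases before the start, and Cdc20 held 2. At least 1 match was found in 79.2% of the 24 windows of mitosis genes and in 34.5% of all windows of tested genes, and the cell cycle homology region TTTGAA in 33.3% against 11%. Whether a factor acts on these letters was not tested.

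Genes of the unfolded protein response, which restores protein folding in the endoplasmic reticulum, were lower for 13 of 20 members and higher for none (median -0.47; 8 lower as deposited and 7 after quantile normalization). Without short-term library 2, 14 were lower and 2 higher, and without long-term library 1 or 2 the lower members numbered 11 or 9. Manf, a secreted folding factor, was at 182, 182 and 181 TPM against 494, 408 and 376 TPM, and at 179 to 185 TPM with PBS (-1.47 ± 0.17, adjusted p = 0.000906). Hyou1, an endoplasmic reticulum chaperone, differed by -0.96 ± 0.10 (adjusted p = 0.000662; -0.41 as deposited) and Pdia6, a disulphide isomerase, by -0.86 ± 0.09 (adjusted p = 0.000639; -0.56 as deposited). For Manf the long-term libraries were at the level of PBS.

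Antioxidant genes of the Nrf2 system did not move one way, with 6 of 33 tested members higher and 11 lower (median -0.18), against 11 higher and 5 lower as deposited (median 0.14). Nfe2l2, which encodes Nrf2 itself, was at 131, 116 and 129 TPM against 45.3, 97.1 and 76.8 TPM (0.44 ± 0.13, adjusted p = 0.0306; 0.84 as deposited, 0.26 with the median transcript length), and lost its call in 7 of the 21 alternatives. Its inhibitor Keap1 differed by -0.13 ± 0.09 (adjusted p = 0.303) and the target Nqo1 by 0.21 ± 0.11 (adjusted p = 0.173). Hmox1, haem oxygenase 1, was at 85.5, 70.0 and 60.4 TPM against 172, 149 and 142 TPM, and at 37.0 to 44.8 TPM with PBS (-1.15 ± 0.14, adjusted p = 0.0011).

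Sod2, the mitochondrial superoxide dismutase and also a target of NF-kB, was at 45.2, 41.9 and 41.5 TPM against 93.5, 104 and 83.7 TPM (-1.89 ± 0.22, adjusted p = 0.000928; -1.11 as deposited). Among the 6 higher members were Gclc, of glutathione synthesis (0.60 ± 0.16, adjusted p = 0.0233; 1.10 as deposited), Gstm1, a glutathione transferase (0.73 ± 0.14, adjusted p = 0.00641; 1.18 after quantile normalization), and Cat, catalase, at 198, 201 and 190 TPM against 60.4, 118 and 110 TPM (0.69 ± 0.14, adjusted p = 0.00795; 1.08 as deposited). For Cat, PBS was at 214 to 228 TPM, above both groups. Without any 1 of the 3 long-term libraries the count of higher members was 3, and that of lower members was 7, 6 and 6. Cyp1a1, the classical target of the aryl hydrocarbon receptor, was at 33.1, 43.6 and 48.0 TPM against 14.9, 32.7 and 19.1 TPM (0.55 ± 0.20, adjusted p = 0.064).

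Genes of injured or stressed epithelium were lower for 8 of 13 members and higher for 1 (median -0.53; 4 lower as deposited). Without short-term library 1 or 2 the count of higher members was 3 or 2. Tnfrsf12a, the receptor of the cytokine TWEAK, was at 50.8, 47.9 and 49.7 TPM against 109.7, 93.3 and 96.9 TPM, with PBS at 42.2 to 48.2 TPM (-0.83 ± 0.09, adjusted p = 0.000662). The higher member was Areg, a ligand of the epidermal growth factor receptor, at 11.5, 11 and 12.6 TPM against 5.27, 9.17 and 5.85 TPM (0.66 ± 0.13, adjusted p = 0.00806), whose call was lost with the median transcript length, at 0.34. Of alveolar cells, 3 of 14 type 2 genes were higher and 4 lower, and 2 of 12 type 1 genes were higher and 3 lower. These shares are near the 16.6% higher and 18.9% lower of all tested genes. Of the type 1 genes 1 was higher without any 1 long-term library, and 5 were lower without short-term library 1. Without short-term library 1, 5 type 2 genes were lower. Sftpc was at 36276, 37806 and 38597 TPM against 19628, 23239 and 25410 TPM (0.92 ± 0.17, adjusted p = 0.00613; 0.60 with the median transcript length), with PBS near the long-term values at 35226 to 35731 TPM. Its call was lost after quantile normalization.

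Fibroblast genes were higher for 9 of 16 members and lower for none (median 0.42, 0.77 as deposited). Itga8, an integrin of lung fibroblasts, was at 63.6, 53 and 55.7 TPM against 6.81, 23.9 and 15.5 TPM (1.21 ± 0.16, adjusted p = 0.00158; 1.98 as deposited), and PBS, at 72.8 to 91.6 TPM, was higher than either. The count fell to 6, 5 and 5 without long-term library 1, 2 or 3. Collagens were higher for 4 of 18 members and lower for 2. These shares, 22.2% and 11.1%, are near the 16.6% and 18.9% of all tested genes. As deposited 13 collagens were higher, beside 30.9% of all genes. Without long-term library 1, 2 or 3 the higher collagens numbered 1, 1 and 3 and the lower ones 1, 0 and 0. Without short-term library 1, 2 or 3 they numbered 4, 7 and 4 higher and 4, 1 and 1 lower. Col1a1, the main fibrillar collagen chain, was at 203, 236 and 189 TPM against 162, 137 and 154 TPM, with PBS at 120 to 138 TPM, and its difference was 0.46 as deposited (adjusted p = 0.03) but -0.09 ± 0.13 after correction (adjusted p = 0.632).

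Smooth muscle and pericyte genes were lower for 6 of 14 members and higher for 1 (median -0.31). Acta2, smooth muscle actin, was at 114, 122 and 126 TPM against 185, 204 and 191 TPM, with PBS, at 115 to 134 TPM, overlapping the long-term libraries (-0.93 ± 0.11, adjusted p = 0.00118; -0.55 after quantile normalization). Without long-term library 1 or short-term library 3 the count of lower members was 3, and without short-term library 2 that of higher members was 2. Endothelial genes were lower for 7 of 24 members and higher for none (median -0.13), whereas as deposited 5 were higher and 2 lower (median 0.30). Without long-term library 1 or 2 or short-term library 3 the count of lower members was 3, 4 or 4. Pecam1, the endothelial adhesion molecule, was at 291, 304 and 317 TPM against 250, 351 and 297 TPM, which overlapped, with a difference of 0.04 as deposited and -0.41 ± 0.10 after correction (adjusted p = 0.0151), and 0.13 after quantile normalization.

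Lists of housekeeping genes were lower in part, with a wide range between settings. Genes of oxidative phosphorylation were lower for 12 of 25 members and higher for none (median -0.38, 4 lower after quantile normalization). Ribosomal protein genes were lower for 12 of 25 and higher for none, with a median of -0.38 that turned to 0.14 after quantile normalization, where 1 was lower. Without long-term library 1, 2 or 3 these counts were 6, 7 and 6 for oxidative phosphorylation and 5, 4 and 5 for ribosomal proteins. Red cell genes summed to 18000 to 30100 TPM with repeated, 35100 to 67400 TPM with single instillation and 50100 to 75500 TPM with PBS. Platelet genes summed to 59.5 to 99.5 TPM, 118 to 125 TPM and 60.5 to 88.5 TPM in the same order. By member, however, 2 of 8 tested platelet genes were lower and none was higher, with a median difference of 0.125. Of 6 tested red cell genes 3 were lower and none was higher (median -0.65). No red cell gene passed as lower without long-term library 1 or 2 or short-term library 3, and 1 did without short-term library 1. The part of red cells and platelets in the other results was not tested. Hba-a1, an alpha globin gene with a close copy, differed by -0.88 ± 0.27 (adjusted p = 0.0358; -0.49 after quantile normalization) and lost its call in 8 of the 21 alternatives.

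Heat shock genes showed 4 higher and 4 lower of 19 members, with a median of -0.27 that turned to 0.18 as deposited. These shares are near those of all tested genes. Without 1 library the counts ranged from 1 to 3 higher and 2 to 7 lower, with 1 higher without long-term library 2 or 3 or short-term library 1 or 3, 2 lower without long-term library 1 or 2 or short-term library 3, and 7 lower without short-term library 2. Hspa1a, the inducible chaperone of the Hsp70 family, was at 20.8, 58.8 and 54.0 TPM against 15.6, 12.8 and 18.6 TPM (1.08 ± 0.33, adjusted p = 0.0371), a call lost in 8 of the 21 alternatives, and at 209 to 336 TPM with PBS. Its near-identical copy Hspa1b, named after its values were seen, was at 20.4, 61.1 and 67.4 TPM against 11.6, 13.0 and 17.4 TPM (1.37 ± 0.39, adjusted p = 0.0278) and at 215 to 371 TPM with PBS, so reads of the pair cannot be assigned with certainty. Both PM2.5 groups were below PBS for the pair. Hspa4l, a related chaperone, was at 22.8, 18.4 and 23.2 TPM against 2.77, 7.96 and 6.17 TPM (0.90 ± 0.11, adjusted p = 0.00131; 1.84 as deposited).

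**Figure D5:**
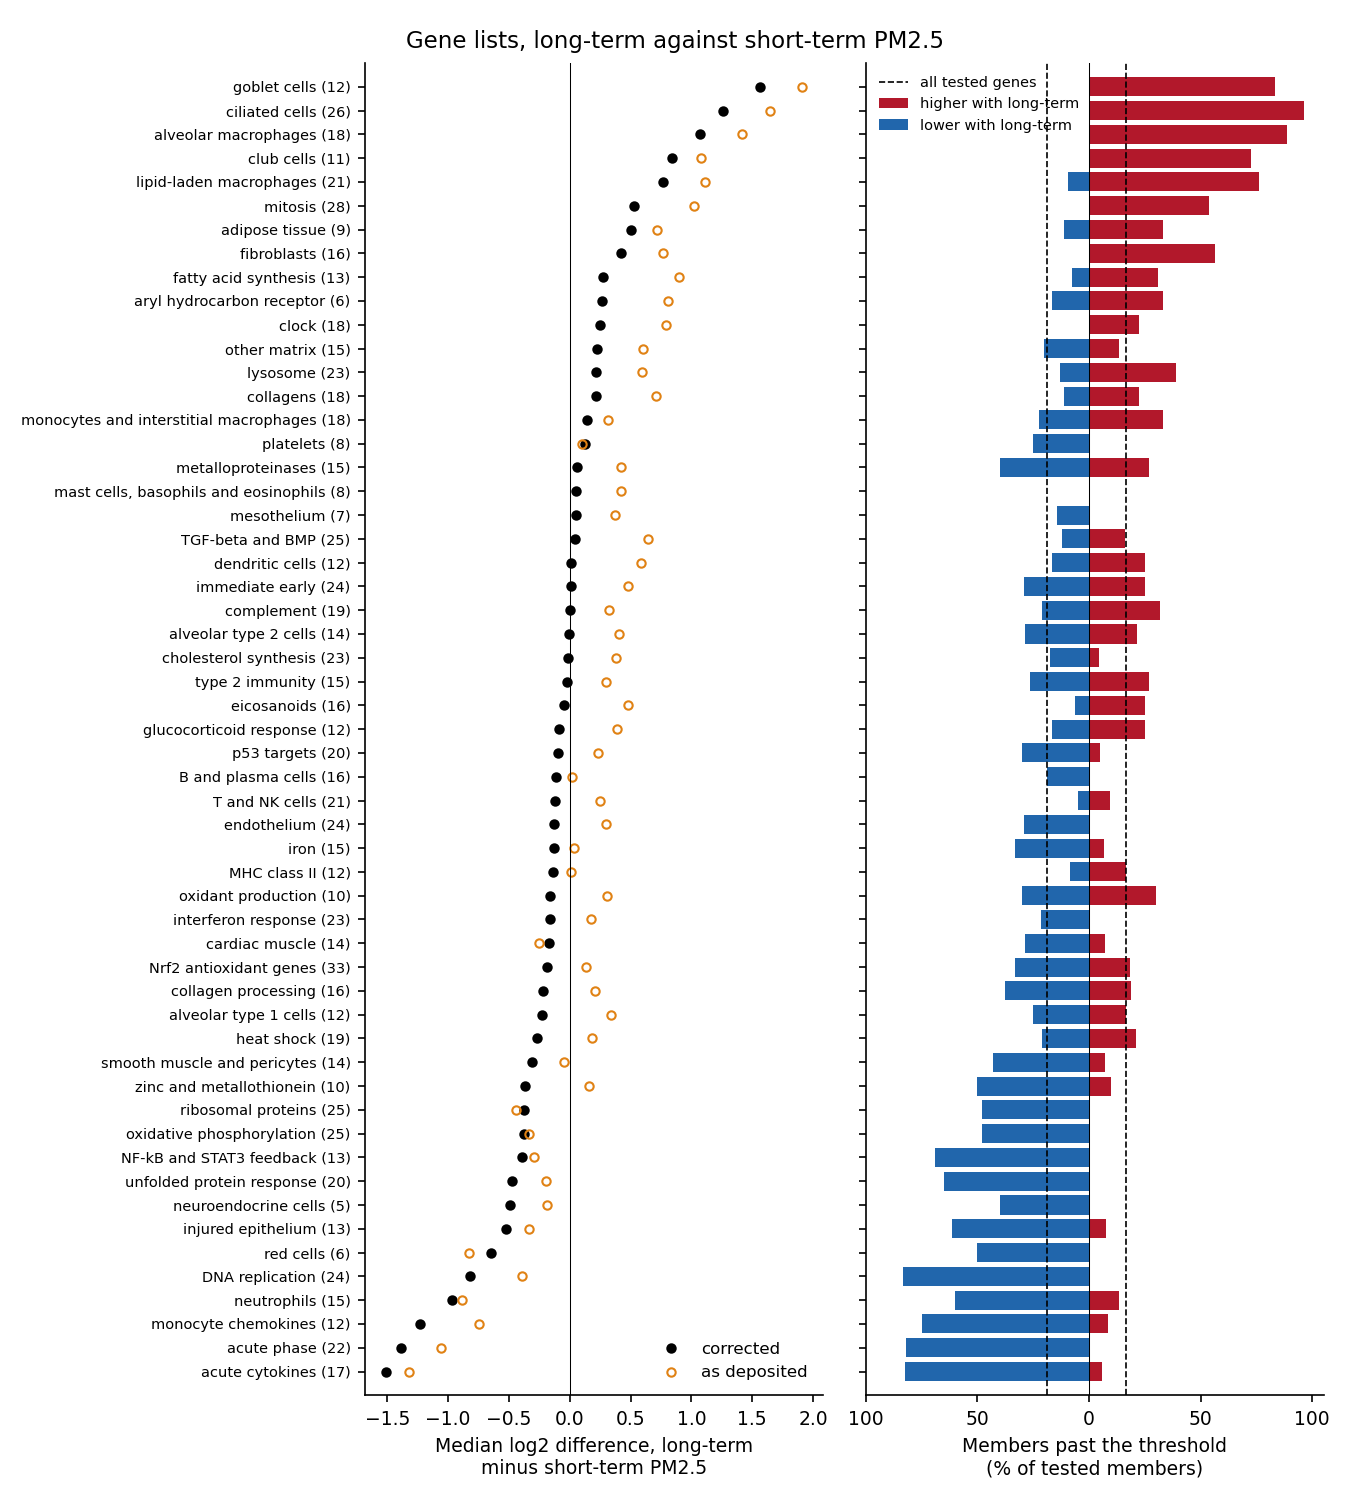
The 55 gene lists with at least 5 tested members (number in brackets). The left panel gives the median log2 difference, long-term minus short-term, corrected (filled) and as deposited (open). The right panel gives the percentage of tested members past the threshold, higher in red to the right and lower in blue to the left, with dashed lines at 16.6% and 18.9% for all tested genes. Goblet, ciliated and alveolar macrophage lists lie at the top and acute phase and acute cytokine lists at the bottom.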

How the data were processed

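Polyadenylated RNA was selected from lung RNA on oligo(dT) beads, and libraries were treated with duplex-specific nuclease before DNBSEQ sequencing, per the labels' protocols. TPM values for 18875 genes in 9 libraries were deposited by the authors in 1 table. HISAT2, Bowtie2, RSEM and DESeq2 are named in the submitters' processing notes without role or version, with the build GRCm38.p6 for 8 of 9 samples. TPM columns sum to a common total, so depth is unknown and no counting interval was computed.

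Genes of at least 1 TPM in at least 3 of the 6 PM2.5 libraries were kept. From the log2(TPM + 1) values of each library, natural splines in transcript length (longest transcript of GENCODE M21, log2) and its GC content, 5 degrees of freedom each, fitted to the difference from the mean of the 6 libraries, were subtracted. PBS libraries were corrected the same way. The 138 kept genes without a length were left out of the test; as deposited 48 of them were higher and 8 lower. Groups came from the labels' treatment field. The 2 PM2.5 groups were compared with limma 3.58.1 in R 4.3.3 (eBayes with intensity trend, two-sided, Benjamini-Hochberg over 13654 genes, threshold 0.05). A run on simulated data held the same length and GC trend that the correction had fitted, so it cannot show whether that trend has the right form. Figures were drawn with matplotlib 3.10.9.

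Named genes were the 15 largest increases and 15 largest decreases with groups that did not overlap and a mean of at least 5 TPM where higher, up to 3 members of each of 59 lists with the smallest p, and a set always named; others are said to be named after their values were seen, which also holds for the genes singled out as going against their list or as not passing and for Ccl17, Ccl22, Ccl24, Gclc, Gstm1 and Cat. Genes and lists were chosen with earlier results of these data known. Alternatives were 21: other corrections, scalings, filters, pseudocounts and variance settings, all 9 libraries, a replicate block, and leaving out each library. Upstream windows of 250 bases come from RefSeq on GRCm38.p6 (13913 windows of 10908 tested genes).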

Additional observations from a re-analysis of the deposited data

How the results depend on the processing

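Of the 4840 genes called changed, the count moved beyond 1.5 times with array weights, to 9406 (4369 higher, 5037 lower; the weights did not converge), and leaving out 1 library gave 2449 to 5594, with 1218 to 2647 higher and 1231 to 2947 lower. Without the length and GC correction 4266 genes were higher and 733 lower (14.7% of calls lower, against 53.2%), and with medians in 20 bins of length 1527 were lower. Genes changed by at least 1 log2 unit numbered 657, 1904 without correction, 1092 with 0.1 TPM added, and 558 to 814 without 1 library. Of the 4840 calls, 768 turned direction without correction, 113 after quantile normalization and 71 with the median transcript length. Among the 230 named genes, those that turned without correction were Pecam1 (0.035), Flt4 (0.15), Col18a1 (0.055), Chordc1 (0.23), Elovl6 (0.15), Zmat3 (0.11) and Xdh (0.046). After quantile normalization they were Pecam1 (0.13), Ctsh (0.022), Ager (0.0897) and Hba-a2 (0.0497), and with the median transcript length Retnla (-0.027). The cause of these shifts was not tested. No pairing by replicate number was used. Taken as deviations from their group means, same-numbered long-term and short-term libraries correlated at -0.03, -0.12 and 0.09, and the other pairs at -0.14 to 0.13. A replicate block gave 4210 changed genes (2047 higher, 2163 lower), 4038 of them called in the same direction without it. Depth is unknown from TPM, and 3 libraries a group limit the precision.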
